A study of Homo sapiens with 9 samples.

Results

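The MYC, MAX and MXD network is a family of transcription factors that share one partner. MYC, MYCN and MYCL bind DNA as heterodimers with MAX, mostly at E-boxes, and are best known for activating genes of growth, ribosome synthesis and cell division. MXD1, MXD3, MXD4, MXI1, MNT and MGA also pair with MAX and oppose MYC at such sites, the MXD proteins and MNT through SIN3 corepressor complexes and MGA within a Polycomb-like complex called PRC1.6. MYC is a proto-oncogene, and its transcript and protein are both short-lived. The 10 genes of this network were taken by symbol from a table of 36225 genes, and each symbol matched 1 gene.

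RNA was measured in RBE, an established human cell line from a cholangiocarcinoma that arose within the liver, a tumour of bile duct epithelium. The cells carried lentivirus with a short hairpin RNA against IDH1 (shIDH1), a short hairpin RNA against JOSD2 (shJOSD2) or a scramble control (Ctrl), so every group shared infection with a lentiviral construct. Each of the 3 groups had 3 libraries. JOSD2 encodes a deubiquitinase and IDH1 an isocitrate dehydrogenase of the cytosol, and the series title concerns mutant IDH1, JOSD2 and the coactivators YAP and TAZ. The labels name neither the number of hairpin sequences per target nor whether replicates are independent infections; p-values therefore reflect only how far these libraries vary, and that variation may be technical.

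Library totals lay between 66036276 and 71612713 deposited counts, and low values piled up at multiples of 4, from which about 4 counts per sequenced fragment were inferred. Of the biliary markers KRT7, KRT19, EPCAM, SOX9 and CFTR, only CFTR stayed below 1 FPKM in every library, and KRT19 lay between 408 and 599 FPKM. IDH1 stood at 12.6 ± 0.446 FPKM in shIDH1 and 44.0 ± 4.44 FPKM in Ctrl libraries, and JOSD2 at 0.795 ± 0.101 FPKM in shJOSD2 and 6.37 ± 0.260 FPKM in Ctrl libraries (SD, n = 3 each). JOSD2 was also lower in shIDH1 libraries, at 1.68 ± 0.174 FPKM, and IDH1 in shJOSD2 libraries, at 34.5 ± 1.56 FPKM (log2 changes against Ctrl -1.90 ± 0.17 and -0.50 ± 0.07), so neither knockdown lowered 1 target alone. The summed level of 8 proliferation markers ran from 28.2 to 42.9 FPKM in shIDH1, 141 to 143 FPKM in shJOSD2 and 365 to 460 FPKM in Ctrl libraries. That of 6 fibroblast markers ran from 14.8 to 18.3, 15.7 to 16.2 and 6.88 to 8.33 FPKM in the same groups, with DCN and LUM at or near 0. Hepatocyte markers summed to 92.2 to 97.6 FPKM in shIDH1, 57.2 to 59.1 FPKM in shJOSD2 and 38.2 to 84.1 FPKM in Ctrl libraries. Among them FGB and SERPINA1 were higher in shIDH1 against Ctrl (log2 changes 4.65 and 0.47), and ALB and APOA1 lower (-2.56 and -3.31). Each of these passed an adjusted p under 0.05 by edgeR, and TTR and TF did not. In shJOSD2 cells 2 of the 6 likewise passed as higher and 2 as lower. Leukocyte markers summed to 25.5 to 28.9, 24.4 to 32.4 and 31.7 to 39.1 FPKM, with 3 of the 6 below 1 FPKM in every library. Only CD68 of 5 tested passed, as lower in both knockdown groups. Endothelial markers, each below 1 FPKM in every library, summed to 0.748 to 0.930, 0.866 to 1.28 and 0.727 to 0.824 FPKM. The sum of 6 RNA quality markers ran from 40.1 to 41.8 FPKM in shIDH1, 41.4 to 43.1 FPKM in shJOSD2 and 24.3 to 33.7 FPKM in Ctrl libraries. In bulk RNA, fewer expressing cells and less RNA per cell cannot be told apart. The part of these differences in the results below was not tested.

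Promoter sequences from 250 bases before to 50 after a start site were taken from RefSeq (GRCh38.p14) and matched 9 of the 10 genes, all but MYC. They were searched on both strands for the E-box CACGTG, the preferred site of MYC and MAX dimers, and for E2F-type motifs, which were TTTCCCG, the variant TTTCGCG, the variant TTTGCCG and the variant TTTGGCG. The E-box was found for MXD4 and MNT and for no other matched member, and an E2F-type motif for MXD3, MYCN and MGA. Of 13011 tested genes with a promoter in the table, 11.9% held the E-box and 15.0% held an E2F-type motif. The promoters of MXD3, MXD4 and MNT are shown because MXD3 had the largest fall among the antagonists and MXD4 and MNT hold the E-box, with the motif in capitals. The MXD3 window is chr5:177312703-177313002, minus strand, that of MXD4 chr4:2262060-2262359, minus strand, and that of MNT chr17:2401011-2401310, minus strand.
MXD3: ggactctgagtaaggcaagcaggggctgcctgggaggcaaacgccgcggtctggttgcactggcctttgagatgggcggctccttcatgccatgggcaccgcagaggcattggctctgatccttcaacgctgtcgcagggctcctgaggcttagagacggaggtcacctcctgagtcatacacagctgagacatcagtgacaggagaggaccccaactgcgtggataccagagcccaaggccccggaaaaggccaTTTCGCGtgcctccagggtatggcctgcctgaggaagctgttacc
MXD4: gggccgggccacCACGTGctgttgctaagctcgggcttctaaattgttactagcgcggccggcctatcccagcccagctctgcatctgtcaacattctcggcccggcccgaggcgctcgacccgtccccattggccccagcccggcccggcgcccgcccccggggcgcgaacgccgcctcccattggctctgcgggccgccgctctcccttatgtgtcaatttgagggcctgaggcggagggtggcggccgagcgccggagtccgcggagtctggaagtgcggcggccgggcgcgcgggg
MNT: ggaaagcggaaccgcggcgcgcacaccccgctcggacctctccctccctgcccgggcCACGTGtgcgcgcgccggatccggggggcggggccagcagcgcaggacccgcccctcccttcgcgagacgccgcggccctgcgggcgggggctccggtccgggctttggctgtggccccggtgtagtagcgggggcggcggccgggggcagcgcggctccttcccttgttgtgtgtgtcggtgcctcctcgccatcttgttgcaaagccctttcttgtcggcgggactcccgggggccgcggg
The E-box began 238 bases upstream of the start site in MXD4 and 193 bases upstream in MNT, and the E2F-type motif began 5 bases downstream in MXD3. The MXD3 window starts from a RefSeq start site that lies upstream of the gene as given in the deposited table. A match describes the letters of the window and does not show binding.

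MYC was the most abundant member in every group by FPKM, a level scaled by transcript length and library size. In Ctrl libraries it was followed by MXD4, MAX, MXI1, MNT, MXD1, MGA, MXD3, MYCL and MYCN in order of mean FPKM. Within Ctrl, the ranges overlapped between MXI1 and MNT, between MXD1 and MGA, between MGA and MXD3, and between MYCL and MYCN, so those neighbours were not separated. In shIDH1 libraries MAX and MXD4 overlapped in second place, and MYCL and MXD3 overlapped near the bottom. In shJOSD2 libraries MXD4 was second, apart from MAX, and MXD1 and MGA overlapped. MYC alone made up 75.4% to 76.0% of the summed FPKM of the 10 genes in shIDH1, 70.3% to 70.7% in shJOSD2 and 64.1% to 66.4% in Ctrl libraries.

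**Figure D1:**
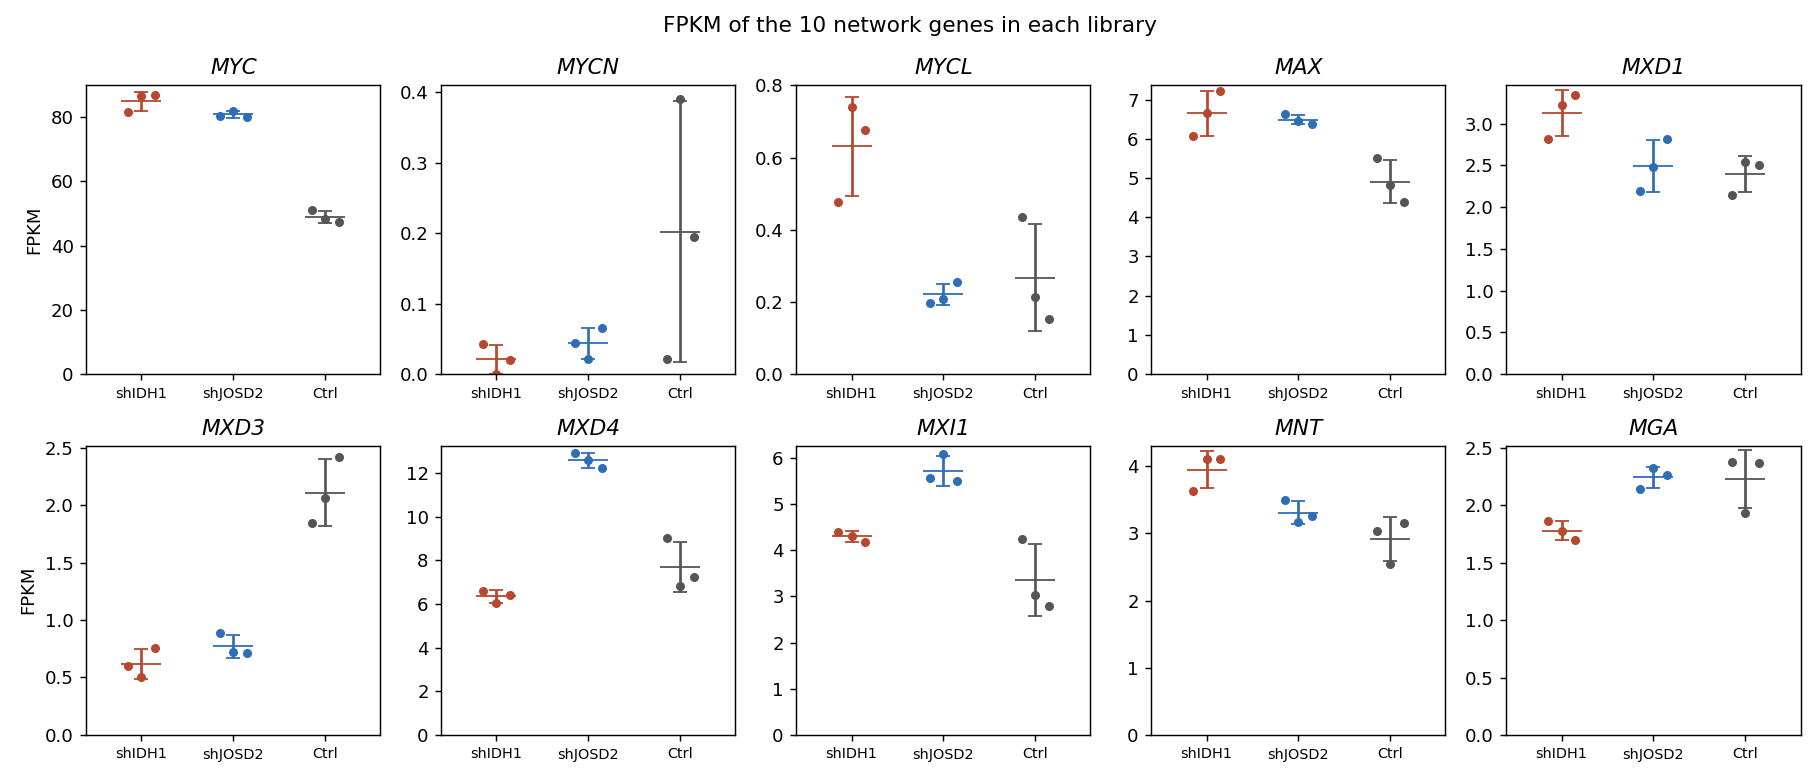
FPKM of each of the 10 network genes (vertical axes, linear, from 0) by group (horizontal axes). Points are libraries, horizontal bars means and whiskers ± SD (n = 3 per group). MYC lay above 80 FPKM in all 6 knockdown libraries and at 47.4 to 51.0 FPKM in Ctrl libraries, while MXD3 lay lower in all 6 knockdown libraries.

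The comparison of shIDH1 with Ctrl asks how the network differs when IDH1 is depleted. MYC rose 1.74-fold and MXD3 fell 3.36-fold, and both groups of libraries were separate for each gene. MAX, MNT, MXD1, MXI1 and MYCL were higher, and MXD4 and MGA were lower by smaller amounts. In all, 6 of the 10 genes were called higher and 4 lower (MXD3, MXD4, MGA and MYCN) at an adjusted p under 0.05 (the quasi-likelihood test of edgeR, adjusted over 21492 genes by Benjamini and Hochberg, here and for every adjusted p named edgeR). By the same rule 50.2% of all tested genes were called, 24.5% higher and 25.7% lower. The FPKM ranges of the groups were separate for 8 members, 5 higher and 3 lower, and for 56.9% of all tested genes, 28.6% higher and 28.3% lower. Without shIDH1 replicate 2 the number of members called was 6, the calls of MXD1, MXI1, MXD4 and MYCN being lost.

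MYC (ENSG00000136997; GRCh38 chromosome 8, 127735434 to 127741434, plus strand) stood at 81.6, 86.6 and 86.9 FPKM in shIDH1 libraries, against 51.0, 48.2 and 47.4 FPKM in Ctrl libraries. The lowest shIDH1 library was thus far above the highest Ctrl library. The fitted log2 change was 0.80 ± 0.06 (SE; adjusted p = 3.21e-08, edgeR), resting on 26957 to 29845 deposited counts per shIDH1 library and 15409 to 17031 per Ctrl library. Among all genes of a library, MYC ranked 316 to 333 by FPKM in shIDH1 and 679 to 753 in Ctrl libraries. The change stayed between 0.77 and 0.91 and kept its call under all 22 alternative settings.

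MYCL, the paralogue first described in lung cancer (ENSG00000116990; chromosome 1, 39895426 to 39902256, minus strand), was scarce. It stood at 0.477, 0.742 and 0.675 FPKM in shIDH1 libraries, against 0.434, 0.212 and 0.154 FPKM in Ctrl libraries. Every shIDH1 library was higher, but Ctrl replicate 1 came close to shIDH1 replicate 1. The log2 change was 1.25 ± 0.33 (adjusted p = 0.00603, edgeR), and with Ctrl replicate 1 as the lone control it was 0.58 with an adjusted p of 0.222 by the same edgeR test. MYCN, the paralogue amplified in neuroblastoma (ENSG00000134323; chromosome 2, 15940550 to 15947007, plus strand), had 8, 0 and 4 deposited counts in shIDH1 libraries, against 4, 74 and 36 in Ctrl libraries. At about 4 counts per fragment, Ctrl replicate 1 lay within the range of the shIDH1 libraries, and the call (adjusted p = 0.0269, edgeR) rested on Ctrl replicates 2 and 3. It was lost without shIDH1 replicate 2 or 3 (adjusted p = 0.0721 and 0.0724) and without Ctrl replicate 2 or 3 (adjusted p = 0.201 and 0.0589, all by edgeR). The replicate block also lost it (adjusted p = 0.0894, edgeR). So did limma on log2(FPKM + 1), filtered or not, and on log2(FPKM + 0.1) (adjusted p = 0.0660, 0.138 and 0.0522, limma). Of the 19 alternatives that gave a value for MYCN, 10 kept the call.

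MAX, the shared dimerization partner (ENSG00000125952; chromosome 14, 65006174 to 65102695, minus strand), stood at 6.08, 6.66 and 7.23 FPKM in shIDH1 libraries, against 5.50, 4.82 and 4.40 FPKM in Ctrl libraries. The groups did not overlap. The log2 change was 0.44 ± 0.09 (adjusted p = 0.000958, edgeR), and the call held under all 22 alternatives. Per library, the FPKM of MYC was 12.0 to 13.4 times that of MAX in shIDH1 and 9.28 to 10.8 times in Ctrl libraries.

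Among the MXD genes, MXD3 (ENSG00000213347; chromosome 5, 177301461 to 177311895, minus strand), which in mouse is expressed in proliferating cells during S phase, had the largest called change apart from MYCN. It stood at 0.597, 0.504 and 0.761 FPKM in shIDH1 libraries, against 1.84, 2.06 and 2.42 FPKM in Ctrl libraries. The groups were far apart, and the log2 change was -1.75 ± 0.18 (adjusted p = 1.81e-06, edgeR), with 11.5% of tested genes changing more. In GENCODE release 29, 22.5% of MXD3 exonic bases lie under exons of PRELID1 on the opposite strand and 18.0% under exons of RAB24 on the same strand. How such reads were counted is not given in the sources used here, which leaves the MXD3 counts uncertain. PRELID1 fell by 0.49 ± 0.08 and RAB24 did not pass, at 0.16 ± 0.11 on the log2 scale (adjusted p = 0.237, edgeR). The summed proliferation markers were lower in both knockdown groups than in Ctrl libraries and differed between the knockdown groups. The MXD3 ranges overlapped between those groups. Any link between MXD3 and these markers was not tested.

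MXD1 (ENSG00000059728; chromosome 2, 69897688 to 69942942, plus strand), a MYC antagonist of differentiating cells also known as MAD1, stood at 2.82, 3.22 and 3.34 FPKM in shIDH1 libraries, against 2.15, 2.54 and 2.50 FPKM in Ctrl libraries. The ranges did not overlap, and the log2 change was 0.38 ± 0.12 (adjusted p = 0.0163, edgeR). The call was lost without shIDH1 replicate 2 or 3 or Ctrl replicate 1 (adjusted p = 0.0569, 0.0740 and 0.0627, edgeR). MXI1 (ENSG00000119950; chromosome 10, 110207605 to 110287365, plus strand), a MAX interactor that represses MYC targets, stood at 4.41, 4.32 and 4.17 FPKM in shIDH1 libraries, against 4.23, 3.04 and 2.79 FPKM in Ctrl libraries. Ctrl replicate 1 lay within the shIDH1 range. The log2 change was 0.36 ± 0.12 (adjusted p = 0.0218, edgeR), but 0.06 against Ctrl replicate 1 alone (adjusted p = 0.723), and the call was also lost without shIDH1 replicate 1 or 2 or Ctrl replicate 2 or 3 (adjusted p = 0.0527, 0.0586, 0.0786 and 0.0820, edgeR).

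MXD4 (ENSG00000123933; chromosome 4, 2247432 to 2262109, minus strand), the most abundant antagonist gene in these cells, stood at 6.62, 6.04 and 6.40 FPKM in shIDH1 libraries, against 9.01, 6.84 and 7.24 FPKM in Ctrl libraries. Every shIDH1 library was lower than every Ctrl library, though narrowly. The log2 change was -0.28 ± 0.08 (adjusted p = 0.0119, edgeR). The call was lost under 4 of 22 alternatives. Without Ctrl replicate 1 the log2 change was -0.16 (adjusted p = 0.0691, edgeR), as it was with upper-quartile factors (adjusted p = 0.120, edgeR). Without shIDH1 replicate 2 the adjusted p was 0.0542 by edgeR, and with limma on log2(FPKM + 1) without a filter it was 0.0895.

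MNT, a widely expressed antagonist (ENSG00000070444; chromosome 17, 2384073 to 2401104, minus strand), stood at 3.63, 4.11 and 4.11 FPKM in shIDH1 libraries, against 3.04, 2.55 and 3.16 FPKM in Ctrl libraries. It rose by 0.44 ± 0.09 on the log2 scale (adjusted p = 0.000956, edgeR), with separate ranges and a call that held under all 22 alternatives. Of its exonic bases 12.2% lie under AC006435.1 on the opposite strand, a smaller form of the limit named for MXD3, and the other members with such overlaps share 1.13% to 4.46% with any 1 gene. MGA, a large protein that combines a T-box with a MAX-binding domain (ENSG00000174197; chromosome 15, 41621224 to 41773081, plus strand), stood at 1.87, 1.78 and 1.70 FPKM in shIDH1 libraries, against 2.38, 1.94 and 2.37 FPKM in Ctrl libraries. It fell by 0.32 ± 0.08 (adjusted p = 0.00305, edgeR), and the groups did not overlap.

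The comparison of shJOSD2 with Ctrl asks the same of JOSD2 depletion, against the same 3 Ctrl libraries. MYC again rose and MXD3 again fell, but MXD4, the most abundant antagonist gene, rose, and so did MXI1. Of the 10 genes 4 were called higher (MYC, MAX, MXI1 and MXD4) and 1 lower (MXD3), where 38.6% of all tested genes were called, 18.3% higher and 20.2% lower. The FPKM ranges were separate for 6 members, 5 higher and 1 lower, and for 51.7% of all tested genes, 34.2% higher and 17.4% lower. FPKM ratios and fitted changes differ here, since libraries scaled by their totals alone put the median of all tested genes at 0.18 on the log2 scale, against 0.03 with TMM factors. With totals alone 65.9% of all called genes were higher, against 47.5% with TMM.

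MYC stood at 80.5, 82.1 and 80.1 FPKM in shJOSD2 libraries, against 51.0, 48.2 and 47.4 FPKM in Ctrl libraries. The 3 shJOSD2 libraries lay close together and well above Ctrl. The log2 change was 0.58 ± 0.06, or 1.49-fold (adjusted p = 2.21e-06, edgeR), and lay between 0.55 and 0.73 over 22 alternatives, each of which kept the call. MAX stood at 6.62, 6.45 and 6.39 FPKM in shJOSD2 libraries, against 5.50, 4.82 and 4.40 FPKM in Ctrl libraries. Its log2 change of 0.25 ± 0.09 passed narrowly (adjusted p = 0.0398, edgeR). The call was lost under 8 of 22 alternatives, with the replicate block (adjusted p = 0.0658), without any one shJOSD2 library (adjusted p = 0.0654 to 0.103), without shIDH1 replicate 2 (0.0588), and without Ctrl replicate 2 or 3 (0.0687 and 0.139, all by edgeR). Against Ctrl replicate 1 alone the log2 change of MAX was 0.12 with an adjusted p of 0.489.

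MXD4 stood at 12.9, 12.6 and 12.2 FPKM in shJOSD2 libraries, against 9.01, 6.84 and 7.24 FPKM in Ctrl libraries. All 3 shJOSD2 libraries exceeded every other library of the study. The log2 change was 0.56 ± 0.08 (adjusted p = 8.04e-05, edgeR). MXI1 stood at 5.57, 6.09 and 5.50 FPKM in shJOSD2 libraries, against 4.23, 3.04 and 2.79 FPKM in Ctrl libraries, without overlap. It rose by 0.62 ± 0.12 (adjusted p = 0.000799, edgeR), and 0.32 against Ctrl replicate 1 alone. MXD3 stood at 0.889, 0.719 and 0.713 FPKM in shJOSD2 libraries, against 1.84, 2.06 and 2.42 FPKM in Ctrl libraries, and fell by 1.58 ± 0.18 (adjusted p = 1.00e-05, edgeR). Its overlapping neighbours PRELID1 and RAB24 had log2 changes of -0.50 ± 0.08 and 0.34 ± 0.11 in this comparison.

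The other 5 members did not pass the test in shJOSD2 cells. MXD1 stood at 2.20, 2.48 and 2.82 FPKM in shJOSD2 libraries, overlapping the Ctrl range, with a log2 change of -0.09 (95% interval -0.35 to 0.16) that was above 0 with library totals alone (0.06) and with limma on log2(FPKM + 1) (0.04). MNT stood at 3.49, 3.17 and 3.27 FPKM in shJOSD2 libraries, each above every Ctrl library, with a fitted log2 change of 0.04 (95% interval -0.16 to 0.23). That change lay between -0.03 and 0.19 over 22 alternatives, none of which passed, and was below 0 only without Ctrl replicate 2. MGA stood at 2.14, 2.32 and 2.27 FPKM in shJOSD2 libraries, with a log2 change of -0.14 (95% interval -0.30 to 0.03) that was above 0 with library totals alone (0.02). Without Ctrl replicate 2 the change of MGA was -0.21 and passed (adjusted p = 0.0363, edgeR). These intervals leave room for changes of either sign. MYCL stood at 0.198, 0.209 and 0.255 FPKM in shJOSD2 libraries, inside the Ctrl range, with a log2 change of -0.41 (95% interval -1.14 to 0.31). Without Ctrl replicate 1 that change was 0.11, and against that library alone it was -1.08 (adjusted p = 0.0246, edgeR). MYCN had 9, 4 and 12 deposited counts in shJOSD2 libraries, and its change (adjusted p = 0.104) passed only without Ctrl replicate 1 (adjusted p = 0.0328, both by edgeR).

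Set directly against each other, shIDH1 and shJOSD2 cells had their largest called differences in MYCL and MXD4. Of the 10 genes 4 were called higher in shIDH1 (MYC, MYCL, MXD1 and MNT) and 1 lower (MXD4), where 45.1% of all tested genes were called, 21.0% higher and 24.1% lower. The FPKM ranges were separate for 6 members, 3 higher and 3 lower, and for 58.4% of all tested genes, 20.7% higher and 37.7% lower. MYCL, at 0.477 to 0.742 FPKM in shIDH1 and 0.198 to 0.255 FPKM in shJOSD2 libraries, had a log2 difference of 1.66 ± 0.34 (adjusted p = 0.000975, edgeR). MXD4, at 6.04 to 6.62 FPKM in shIDH1 and 12.2 to 12.9 FPKM in shJOSD2 libraries, had a log2 difference of -0.84 ± 0.08 (adjusted p = 1.23e-06, edgeR). Both calls held under all 22 alternatives.

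The other called differences between the hairpins were smaller. MXD1 was higher in shIDH1 by 0.47 ± 0.12 and MNT by 0.40 ± 0.09 on the log2 scale (adjusted p = 0.00479 and 0.00220, edgeR), and each lost its call with limma on log2(FPKM + 1) (adjusted p = 0.0540 and 0.0677). MYC was higher in shIDH1 by 0.22 ± 0.06 (adjusted p = 0.00539, edgeR), but its FPKM ranges overlapped and the difference was 0.06 with library totals alone (adjusted p = 0.375). MXD3 had a log2 difference of -0.16 (95% interval -0.55 to 0.23), MAX of 0.19 (-0.01 to 0.38), MXI1 of -0.26 (-0.52 to -0.01) and MGA of -0.19 (-0.36 to -0.02), none of which passed after adjustment. MXI1 passed under 8 of 22 alternatives, MGA under 6 and MAX under 2. Among these, MXI1 and MGA passed with library totals alone (adjusted p = 0.0132 and 0.00432, edgeR). With only these 2 groups in the fit, MXI1 and MAX passed (adjusted p = 0.0149 and 0.0278, edgeR). The FPKM ranges of MXI1 and MGA were separate. MYCN, at 0 to 12 deposited counts in these 6 libraries, did not pass (adjusted p = 0.552, edgeR).

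**Figure D2:**
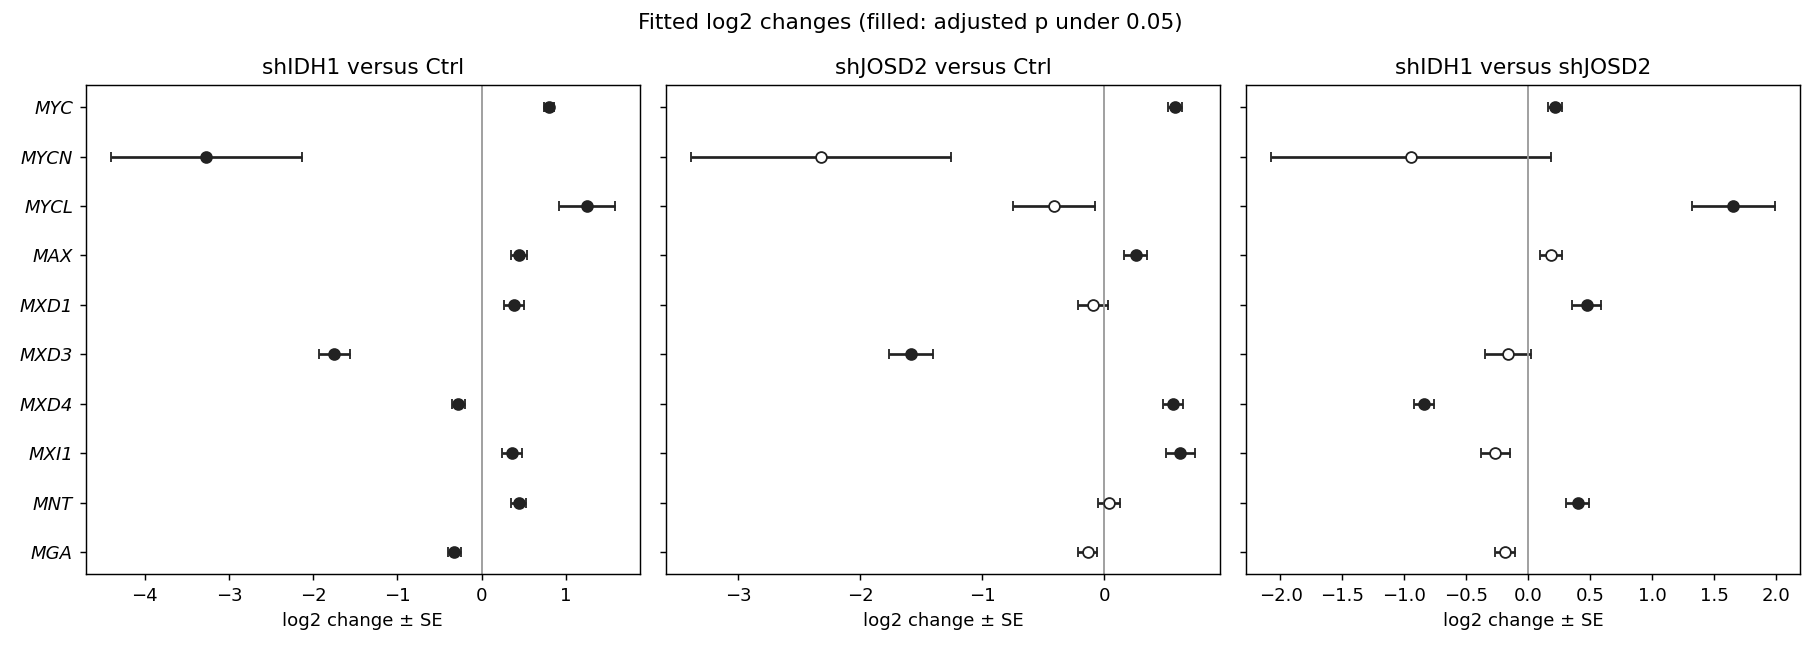
Fitted log2 change (horizontal axes, whiskers ± SE) of the 10 network genes in shIDH1 against Ctrl, shJOSD2 against Ctrl and shIDH1 against shJOSD2 (n = 3 libraries per group). Filled points passed an adjusted p under 0.05 by edgeR; MXD4 lies left of 0 for shIDH1 and right of 0 for shJOSD2 against Ctrl, and MXD3 lies left of 0 in both.

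The makeup of the antagonists differed between groups. MXD1, MXD3, MXD4, MXI1, MNT and MGA together summed to 19.9 to 20.5 FPKM in shIDH1, 26.8 to 27.4 FPKM in shJOSD2 and 19.0 to 22.7 FPKM in Ctrl libraries. The FPKM of MYC was 4.09 to 4.34 times this sum in shIDH1, 2.96 to 3.00 times in shJOSD2 and 2.25 to 2.54 times in Ctrl libraries, so the ratio was higher in each knockdown library than in any Ctrl library. Among the 4 MXD genes, MXD4 gave 42.9% to 45.8% of the summed FPKM in shIDH1, 57.5% to 59.9% in shJOSD2 and 47.2% to 52.3% in Ctrl libraries. MXD3 gave 3.58% to 5.19% in shIDH1, 3.28% to 4.13% in shJOSD2 and 10.7% to 16.2% in Ctrl libraries. These are transcript ratios, given as a description with no test.

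**Figure D3:**
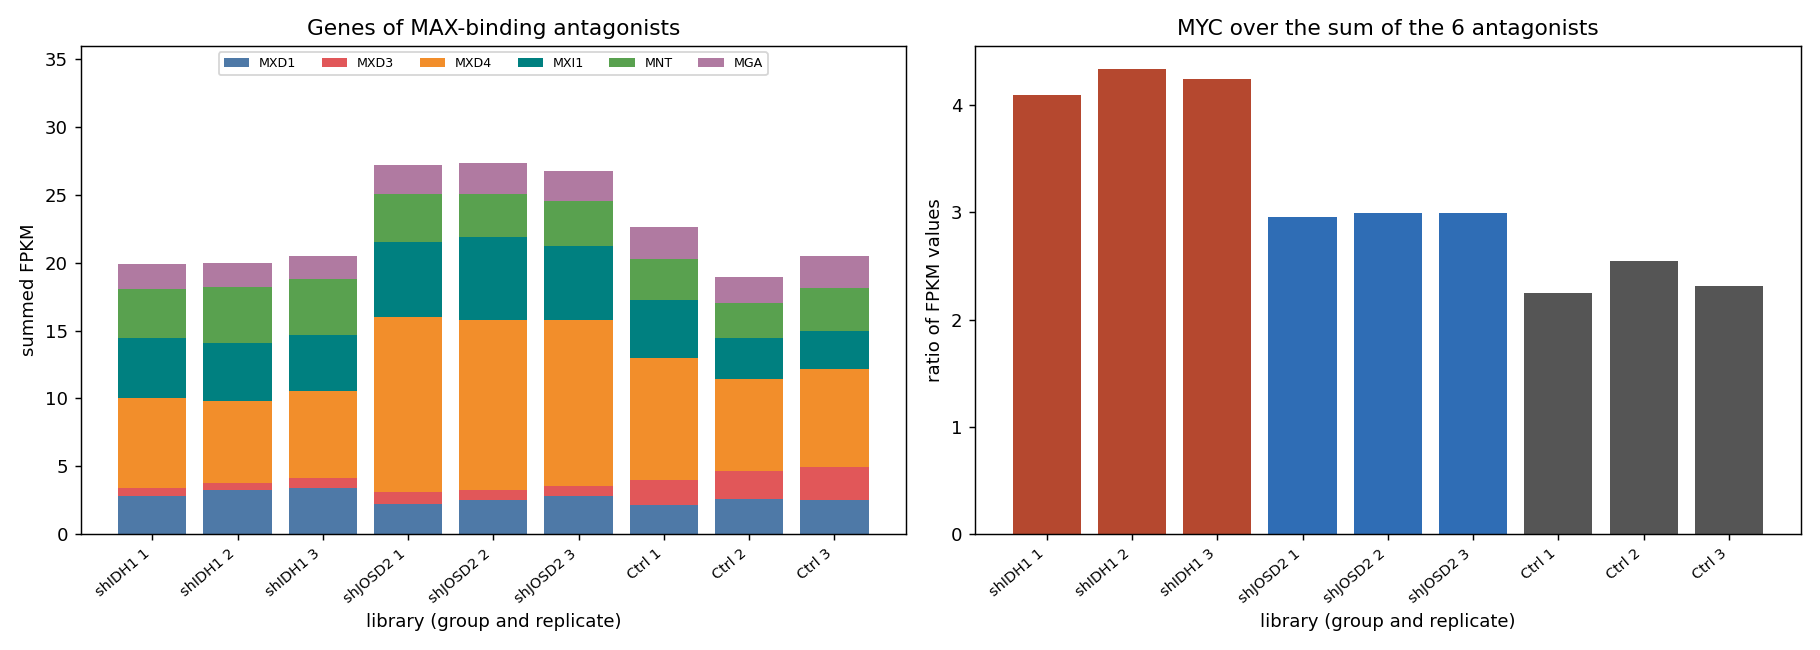
Left, FPKM of 6 genes of MAX-binding MYC antagonists stacked for each of 9 libraries (vertical axis, summed FPKM). Right, ratio of MYC FPKM to that sum in the same libraries, from 4.09 to 4.34 in shIDH1, 2.96 to 3.00 in shJOSD2 and 2.25 to 2.54 in Ctrl.

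The genes with a pattern nearest to that of MYC were ranked by the root mean square difference of their centred log2(FPKM + 1) values over the 9 libraries, among 12395 genes with a mean of at least 1 FPKM. TTC17, a tetratricopeptide repeat gene, came first with 0.0395, followed by ATRN (attractin) with 0.0480, TNRC6A (a microRNA silencing factor) with 0.0498, FYN (a Src-family kinase) with 0.0506 and RRAGD (a Rag GTPase) with 0.0510. TTC17 averaged 12.3 FPKM in shIDH1, 11.6 FPKM in shJOSD2 and 6.78 FPKM in Ctrl libraries. No ranked network member was among the 5 nearest: MAX ranked 794, MXI1 1517, MNT 1912, MXD1 3011, MGA 6385, MXD4 7610 and MXD3 11418. MYCL and MYCN, with a mean below 1 FPKM, were not ranked.

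Transcripts next to MYC on chromosome 8 were also examined. PVT1, a long noncoding RNA gene downstream of MYC, stood at 2.27, 2.54 and 2.57 FPKM in shIDH1, 1.42, 1.32 and 1.33 FPKM in shJOSD2 and 1.26, 0.988 and 1.16 FPKM in Ctrl libraries. It rose by 1.10 ± 0.09 in shIDH1 cells (adjusted p = 8.07e-08, edgeR), and its change of 0.11 ± 0.09 in shJOSD2 cells did not pass (adjusted p = 0.357). The difference between the hairpins was 0.995 ± 0.09 (adjusted p = 3.33e-07, edgeR). CASC11, upstream of MYC on the opposite strand, had 39, 45 and 60 deposited counts in shIDH1, 15, 9 and 31 in shJOSD2 and 15, 12 and 6 in Ctrl libraries, and rose in shIDH1 cells (log2 change 2.10 ± 0.63, adjusted p = 0.0119, edgeR) on these low counts. CCAT2 stayed below 0.1 FPKM in every library and was not tested. The same held for MYCNOS, which overlaps MYCN on chromosome 2, and for MYCL-AS1, named for MYCL on chromosome 1.

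MLX, the MAX-like partner of a parallel arm of the network, fell with both hairpins. It stood at 13.0 to 14.2 FPKM in shIDH1, 13.9 to 14.7 FPKM in shJOSD2 and 18.4 to 19.6 FPKM in Ctrl libraries, with log2 changes of -0.50 ± 0.07 and -0.55 ± 0.07 against Ctrl (adjusted p = 1.82e-05 and 1.43e-05, edgeR). MLXIP (MondoA) fell by 0.68 ± 0.06 in shIDH1 cells, with a change of -0.01 ± 0.06 in shJOSD2 cells. MLXIPL, the carbohydrate-responsive factor ChREBP, fell by 0.38 ± 0.13 in shIDH1 cells and rose by 0.80 ± 0.13 in shJOSD2 cells.

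Genes that act with the network were described by lists compiled from general knowledge. Of 18 MYC partners and coactivators 11 fell and 0 rose in shIDH1 cells, with a median log2 change of -0.52, and 9 fell and 1 rose in shJOSD2 cells, with a median of -0.17. Of all tested genes 25.7% fell and 24.5% rose in shIDH1 cells (median 0.01), and 20.2% fell and 18.3% rose in shJOSD2 cells (median 0.03). WDR5, which helps to recruit MYC to chromatin, stood at 16.2 ± 0.658 FPKM in shIDH1, 16.7 ± 0.711 in shJOSD2 and 34.1 ± 1.78 in Ctrl libraries (SD, n = 3 each), with log2 changes of -1.08 ± 0.06 and -1.17 ± 0.06 against Ctrl. RUVBL2, an ATPase of chromatin complexes, fell by 1.21 ± 0.11 and 0.54 ± 0.11 with shIDH1 and shJOSD2, and ACTL6A, a shared subunit of such complexes, fell by 1.15 ± 0.09 and 0.69 ± 0.08.

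Of 20 genes of MYC protein turnover and modification 13 fell and 4 rose in shIDH1 cells, with a median of -0.37, and 14 fell and 2 rose in shJOSD2 cells, also with a median of -0.37. That is 65% lower and 20% higher with shIDH1 and 70% lower and 10% higher with shJOSD2, compared with 25.7% lower and 24.5% higher, and 20.2% lower and 18.3% higher, of all tested genes. AURKA, a mitotic kinase that stabilizes MYC-family proteins, stood at 4.48 ± 0.503 FPKM in shIDH1, 16.9 ± 1.03 in shJOSD2 and 42.2 ± 4.17 in Ctrl libraries (SD, n = 3 each). CIP2A, an inhibitor of the phosphatase that acts on MYC, fell by 2.62 ± 0.18 and 1.31 ± 0.17 with shIDH1 and shJOSD2. SKP2, an F-box protein, fell by 2.50 ± 0.16 and 0.71 ± 0.15 with shIDH1 and shJOSD2, and PIM2, a kinase, by 0.39 ± 0.15 and 1.21 ± 0.15. Several of these genes are also cell cycle genes, and the summed proliferation markers moved with them.

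Among corepressors of the MXD proteins and MNT, 7 of 14 SIN3 complex genes fell and 2 rose in shIDH1 cells (median -0.38), and the same numbers were found in shJOSD2 cells (median -0.16). The shares of all tested genes were 25.7% lower and 24.5% higher with shIDH1 and 20.2% lower and 18.3% higher with shJOSD2. The scaffold gene SIN3A fell by 0.62 ± 0.07 and 0.26 ± 0.07 with shIDH1 and shJOSD2, and the subunit gene BRMS1 by 0.67 ± 0.09 and 0.33 ± 0.09. The histone chaperone gene RBBP7 fell by 1.19 ± 0.06 and 0.62 ± 0.06 with shIDH1 and shJOSD2, RBBP4 fell by 0.40 ± 0.07 and 0.77 ± 0.07, and ARID4A rose by 0.40 ± 0.10 and 0.41 ± 0.10. The count of 9 called in shJOSD2 cells was 5 without Ctrl replicate 3 or with library totals alone. Of 11 PRC1.6 genes that work with MGA, 4 fell and 3 rose in shIDH1 cells (median -0.03), and 3 fell and 3 rose in shJOSD2 cells (median -0.06). With 36.4% lower and 27.3% higher in shIDH1 and 27.3% each way in shJOSD2 cells, these shares lie near those of all tested genes. TFDP1, the dimer partner of E2F factors, fell by 1.58 ± 0.09 and 0.80 ± 0.09, and L3MBTL2 fell by 1.004 ± 0.10 and 0.90 ± 0.10. The methyltransferase gene EHMT2 fell by 0.91 ± 0.07 in shIDH1 cells, with an uncalled change of 0.11 ± 0.07 in shJOSD2 cells. Its relative EHMT1 had an uncalled change of 0.04 ± 0.06 in shIDH1 cells and fell by 0.67 ± 0.06 in shJOSD2 cells.

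Most genes of the lists known to be activated by MYC fell with both hairpins. Of 30 such genes of the nucleolus and ribosome synthesis 27 fell and 0 rose in shIDH1 cells (median -0.80), and 20 fell and 1 rose in shJOSD2 cells (median -0.36). Of all tested genes 25.7% fell and 24.5% rose in shIDH1 cells, and 20.2% fell and 18.3% rose in shJOSD2 cells. TCOF1, encoding the nucleolar protein treacle, stood at 4.48 ± 0.213 FPKM in shIDH1, 15.8 ± 0.236 in shJOSD2 and 14.3 ± 0.918 in Ctrl libraries (SD, n = 3 each). RRS1, a ribosome assembly factor, fell by 1.57 ± 0.09 and 0.77 ± 0.09 with shIDH1 and shJOSD2, and UBTF, a factor of ribosomal RNA transcription, by 1.41 ± 0.07 and 0.64 ± 0.07. GRWD1, another assembly factor, fell by 1.10 ± 0.09 and 0.71 ± 0.09. The 21 calls in shJOSD2 cells were 13 against Ctrl replicate 1 alone.

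Of 30 MYC-activated genes of growth and metabolism 22 fell and 1 rose in shIDH1 cells (median -0.75), and 26 fell and 1 rose in shJOSD2 cells (median -0.54). For this list and the cell cycle list below, the shares of all tested genes are the same. They were 25.7% lower and 24.5% higher with shIDH1 (median 0.01), and 20.2% lower and 18.3% higher with shJOSD2 (median 0.03). The thymidylate synthase gene TYMS fell by 2.30 ± 0.14 and 1.39 ± 0.13 with shIDH1 and shJOSD2. The glycolytic enzyme gene ENO1 fell by 0.97 ± 0.08 and 2.16 ± 0.08, and the purine synthesis gene PPAT by 0.79 ± 0.08 and 1.54 ± 0.08. TERT, the telomerase catalytic subunit, had 15, 28 and 0 deposited counts in shIDH1, 36, 19 and 22 in shJOSD2 and 100, 104 and 106 in Ctrl libraries. Of 20 cell cycle genes activated by MYC 16 fell and 2 rose in shIDH1 cells (median -1.95), and 15 fell and 0 rose in shJOSD2 cells (median -1.17). CCNB1 stood at 5.22 ± 1.20 FPKM in shIDH1, 28.8 ± 0.930 in shJOSD2 and 80.5 ± 7.47 in Ctrl libraries (SD, n = 3 each), and PLK1, E2F2 and BIRC5 were among the others with the largest called changes. This list shares CCNB1 and MCM4 with the proliferation markers, which moved with it.

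A promoter with CACGTG was found for 11 of 23 nucleolar genes, 13 of 24 growth genes and 5 of 14 cell cycle genes with a promoter in the table, compared with 11.9% of tested genes. Of the 29 listed genes with CACGTG 22 fell in shIDH1 cells and 22 in shJOSD2 cells. Of the 32 without it 28 fell in shIDH1 cells and 24 in shJOSD2 cells. Over all tested genes with a promoter, 34.7% of those with CACGTG and 31.7% of those without were called lower in shIDH1 cells, and 27.4% and 25.9% in shJOSD2 cells.

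Of 17 tested genes known to be repressed by MYC 12 rose and 3 fell in shIDH1 cells (median 0.62), and 5 rose and 5 fell in shJOSD2 cells (median 0.00), where 24.5% of all tested genes rose and 25.7% fell in shIDH1 cells and 18.3% rose and 20.2% fell in shJOSD2 cells. GADD45A, a growth-arrest gene, stood at 53.5 ± 8.87 FPKM in shIDH1, 24.6 ± 2.17 in shJOSD2 and 12.1 ± 0.970 in Ctrl libraries (SD, n = 3 each). DDIT3 rose by 3.36 ± 0.18 and 0.50 ± 0.17 with shIDH1 and shJOSD2, and the CDK inhibitor gene CDKN2C fell by 2.01 ± 0.17 and 1.38 ± 0.17. TXNIP, a known target of the MLX and Mondo arm as well, fell by 1.93 ± 0.14 in shIDH1 cells and rose by 2.29 ± 0.13 in shJOSD2 cells, while NDRG2 rose by 0.47 ± 0.08 in shIDH1 cells and fell by 1.53 ± 0.09 in shJOSD2 cells. Of 20 factors that act on MYC transcription 12 fell and 4 rose in shIDH1 cells (median -0.32), and 10 fell and 3 rose in shJOSD2 cells (median -0.26). The 20% and 15% that rose lie near the shares of all tested genes. The shares that fell were 60% with shIDH1 and 50% with shJOSD2, against 25.7% and 20.2% of all tested genes. FOXM1, a cell cycle factor, fell by 3.70 ± 0.19 and 1.51 ± 0.17 with shIDH1 and shJOSD2, and NFKB1 by 1.80 ± 0.08 and 0.94 ± 0.08. KLF4 rose by 1.65 ± 0.11 and 0.39 ± 0.11, and FUBP1, which binds upstream of MYC, fell by 0.46 ± 0.06 and 0.90 ± 0.06.

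**Figure D4:**
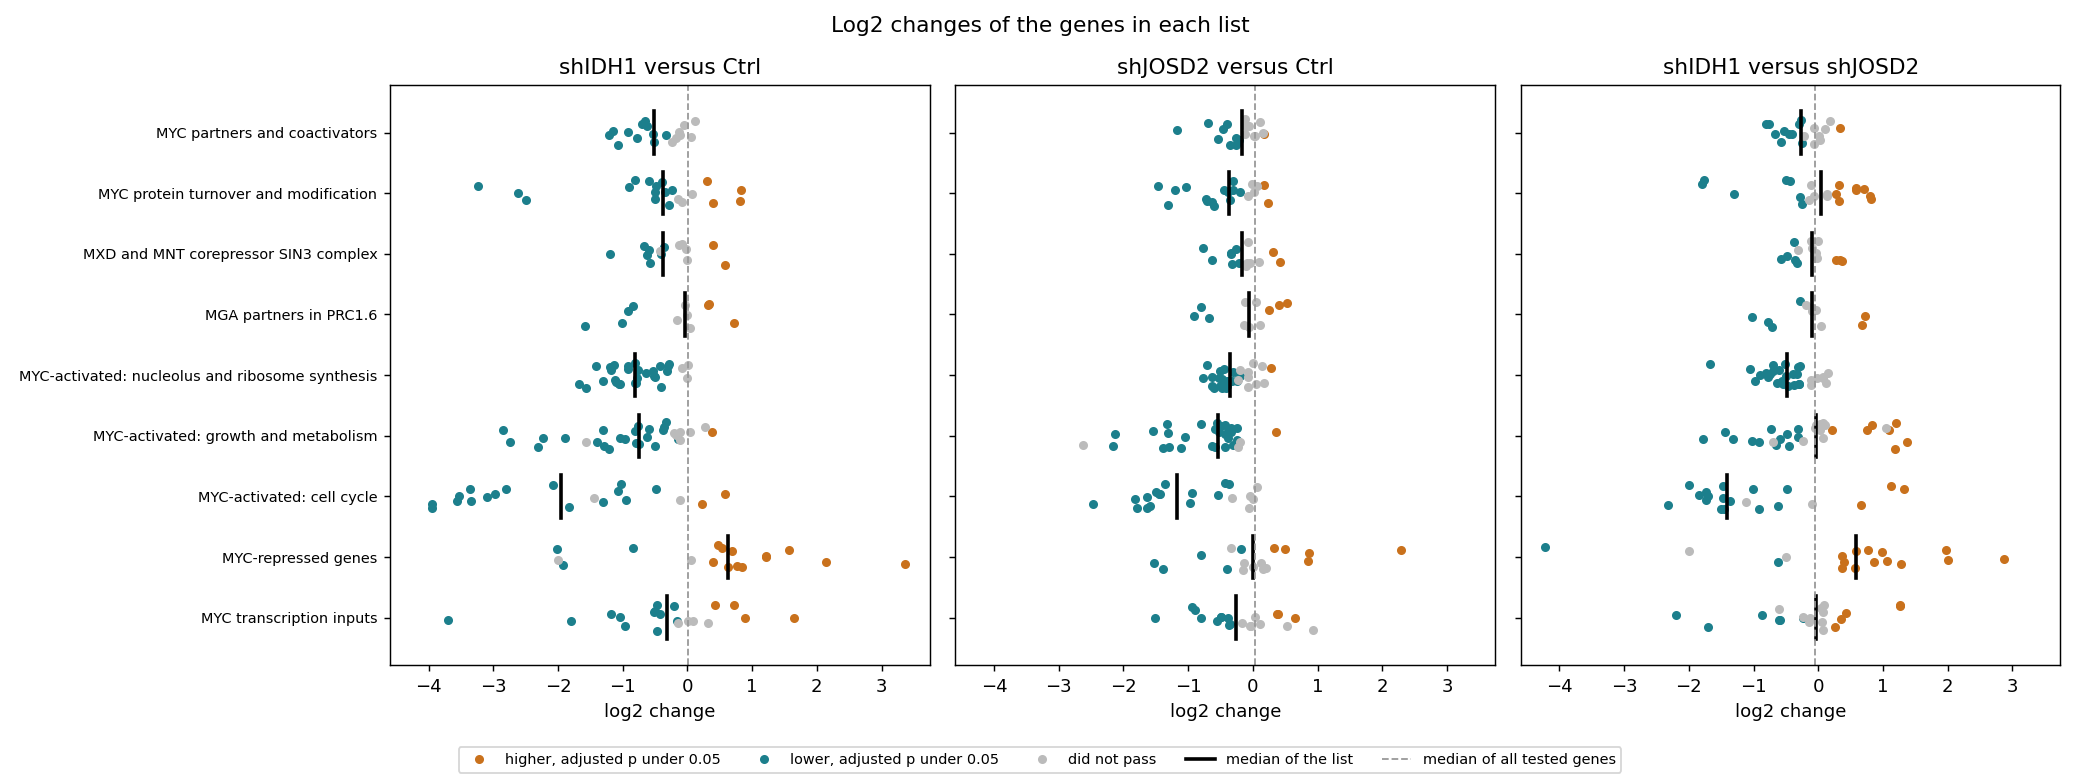
Log2 change (horizontal axes) of each tested gene of 9 lists in shIDH1 against Ctrl, shJOSD2 against Ctrl and shIDH1 against shJOSD2. Points are genes, coloured by the direction of a call at an adjusted p under 0.05 (edgeR), short black lines list medians and the dashed line the median of all tested genes. The 3 MYC-activated lists have medians of -0.80, -0.75 and -1.95 in shIDH1 and -0.36, -0.54 and -1.17 in shJOSD2 cells against Ctrl.

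Between the hairpins, 23 of 30 nucleolar genes were lower in shIDH1 than in shJOSD2 cells and 0 higher (median -0.48), where 24.1% of all tested genes were lower and 21.0% higher (median -0.06). Of the 20 cell cycle genes 15 were lower and 3 higher (median -1.41), of the 30 growth genes 12 were lower and 7 higher (median -0.04), and of the 17 repressed genes 2 were lower and 13 higher (median 0.58). TCOF1 was lower in shIDH1 by 1.68 ± 0.07 on the log2 scale (adjusted p = 4.26e-10, edgeR). Of the 18 partners 10 were lower and 1 higher (median -0.26), of the 20 turnover genes 7 lower and 8 higher (median 0.04), of the 14 SIN3 complex genes 5 lower and 3 higher (median -0.10), of the 11 PRC1.6 genes 4 lower and 2 higher (median -0.10), and of the 20 transcription inputs 6 lower and 5 higher (median -0.04). The SIN3 complex genes were 35.7% lower and 21.4% higher, the PRC1.6 genes 36.4% lower and 18.2% higher, and the transcription inputs 30% lower and 25% higher. These shares lie near those of all tested genes.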

How the data were processed

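RNA was sequenced from 9 RBE libraries, 3 per group. Libraries were dUTP-marked, made from poly(A) RNA with molecular identifiers and read from both ends, per the labels' protocols. The submitters' processing notes name StringTie 1.3.4d, UMI-tools, HISAT2 2.0.4, cutadapt 1.9 and GRCh38. The sources used here do not give their roles, the annotation, how counts were made, the strand setting or how molecular identifiers were used. The deposited table gives a whole-number count per gene and library, not normalized, per the file headers, and an FPKM value that the authors scaled by length and library size, per the file headers.

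Counts were tested with edgeR 4.0.16 in R 4.3.3: 1 fit of all 9 libraries with a mean per group, filterByExpr (21492 genes), TMM scaling, robust quasi-likelihood F-tests, and calls at a Benjamini-Hochberg adjusted p under 0.05 across these genes. A standard error is the size of the log2 change divided by the root of its F. The step was tested on simulated counts. Library totals were 66036276 to 71612713 counts, and counting error is larger than counts imply, at about 4 counts per fragment. Replicate pairs differed beyond sampling noise (chi-square per degree of freedom 3.62 to 10.0, counts divided by 4).

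The members and gene lists were chosen with earlier results of these data known. PHB1 was read as PHB, and every listed gene was in the table except 2 of 7 neighbours of the MYC, MYCN and MYCL loci. Named genes were all members, IDH1, JOSD2, every gene of the MLX and locus lists, up to 3 called genes with the largest change per list and comparison with Ctrl, and the 5 genes most like MYC; some genes this rule or the marker lists name are not reported here. The range of KRT19 and the overlapping genes PRELID1 and RAB24 were added after values and annotation were seen. Alternatives were DESeq2 1.42.0, limma 3.58.1 on log2(FPKM + 1) and log2(FPKM + 0.1), other filters and scalings, counts divided by 4, a fit of only the 2 groups compared, a replicate block, Ctrl replicate 1 as the lone control, and each library left out. A lone library was taken to vary as the other groups do. Promoters came from RefSeq and exon overlaps from GENCODE release 29. Figures were drawn with matplotlib 3.10.9.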

Additional observations from a re-analysis of the deposited data

How the results depend on the processing

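Of 652 recomputed changes of members 579 kept their direction and side of the threshold, and of 858 counts 832 stayed within 1.5 times; MYC and MXD3 against Ctrl kept both with either hairpin under all 22 alternatives. In shIDH1 against Ctrl, 6 members were called with limma on log2(FPKM + 1) without a filter and 6 to 10 with 1 library left out, the 2 called locus neighbours were 1 with at least 1 CPM, with counts divided by 4 and with Ctrl replicate 1 as the lone control, and MYCN turned to 0.024 with that lone control. In shJOSD2 against Ctrl, the change of MXD1 turned to 0.063 with library totals alone, 0.039 with limma on log2(FPKM + 1), filtered or not, 0.053 on log2(FPKM + 0.1) and 0.10 with the lone control. That of MGA turned to 0.016 with library totals alone, 0.0091 with limma on log2(FPKM + 1), filtered or not, and 0.014 on log2(FPKM + 0.1). MYCN turned to 0.97 with the lone control, MYCL to 0.11 without Ctrl replicate 1 (-0.68 to 0.11 with 1 library left out) and MNT to -0.033 without Ctrl replicate 2. Of the counts in shJOSD2 cells, 9 SIN3 complex genes were 5 with upper-quartile factors, library totals alone or any limma fit, 3 with the lone control and 5 to 9 with 1 library left out; locus neighbours were 1 with library totals alone against 0; nucleolar genes were 12 with limma without a filter and 13 with the lone control against 21; and with the lone control partners were 4 against 10 and turnover genes 10 against 16. Between the hairpins, 3 members were called with limma without a filter against 5, locus neighbours were 2 against 1 with only the 2 groups compared, every limma fit and the lone control, and 1 to 2 with 1 library left out, and SIN3 complex genes were 5 to 8 with 1 library left out. The cause was not tested. Scaling moved the split of all calls: in shJOSD2 against Ctrl 47.5% were higher with TMM, 58.1% with upper-quartile factors, 65.9% with library totals alone and 64.7% with limma on log2(FPKM + 1); between the hairpins the shares were 46.5% with TMM, 33.3% with library totals alone and 34.4% with limma.

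Deviations of same-numbered libraries from their group means correlated between -0.0818 and 0.0744, and those of differently numbered libraries between -0.135 and 0.131. The labels give no pairing. This check over many genes could miss a shared step that moves few genes, so pairing is not known. With the replicate block 9 members were called in shIDH1 and 4 in shJOSD2 cells against Ctrl and 5 between the hairpins, and over all genes 10472, 7923 and 9384. Low counts limit MYCN, MYCL, CASC11 and TERT.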
